A study of Arabidopsis thaliana with 9 samples.

Results

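WRKY genes encode plant transcription factors named after a short run of amino acids in their DNA-binding domain, and 6 of them were followed here in cauline buds of Arabidopsis. They were taken by name: each probe set that the platform table pairs with exactly 1 gene was kept where its symbol begins with WRKY and a digit, with 1 probe set per gene. This gave WRKY6, WRKY20, WRKY22, WRKY42, WRKY47 and WRKY53, out of 13356 genes named in this way on an array of 22810 probe sets. None of the 6 has a further probe set of this kind. The gene table used here holds 72 WRKY genes by symbol or synonym, so that most of the family is not analysed here, and nothing below describes the family as a whole. A seventh gene, WRKY1, stands in the platform table under its other name, ZAP1, and is given beside the members.

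WRKY proteins bind a short element known as the W box, with the core letters TTGAC, and many of them act on each other's genes. The family is best known for responses to pathogens, wounding and nutrient supply and for the ageing of leaves. It is divided by domain number and sequence: group I proteins carry a pair of WRKY domains and the others 1, and group II is split further into subgroups. Of the members, WRKY20 belongs to group I, WRKY6, WRKY42 and WRKY47 to group IIb, WRKY22 to group IIe and WRKY53 to group III. By their loci, 5 of the 6 lie on chromosome 4 and WRKY6 (AT1G62300) lies on chromosome 1. Chromosome 4 holds 14.6% of the named nuclear genes. Its share of the 72 WRKY genes was not counted, so the 5 describe only which WRKY genes are named here.

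Buds of Col-0 wild-type plants, 3-4 weeks old, were taken from excised stem segments with 1 node after 18 h. There were 3 groups with 3 biological replicates each. NAA+CK had 1 µM of the auxin NAA at the apical end and 1 µM of the cytokinin BA (6-benzylaminopurine) at the basal end. NAA had 1 µM NAA at the apical end, and mock had 70% ethanol, applied diluted, at that end. The study's methods also give DMSO, the solvent of BA, as the basal mock treatment. All segments were isolated from root and shoot apex, and the number of buds behind an array is not given in the sources used here. RNA of each replicate was hybridised to 1 Affymetrix ATH1 array, and the values are log2 expression values, on which a difference of 1 is a 2-fold change. In whole buds, fewer cells of a type and less RNA per cell cannot be told apart.

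The names mock and NAA are uncertain. The labels run against a supplementary list of the study, which is headed as lower with auxin than with ethanol. All 220 of its probe sets were higher on the arrays labelled NAA than on those labelled mock, and none of the WRKY members is in it. The study's text also names mock and NAA with CK as the pair of groups with hardly any differing genes. By the labels, that pair is NAA+CK and NAA, with 2 probe sets called, against 1241 between NAA+CK and mock. Groups are named here by their labels. If the names mock and NAA were exchanged, the difference between NAA and mock would change its sign, and the comparisons of NAA+CK with mock and with NAA would change places. Array medians lay between 6.99 and 7.11. The 3 arrays numbered 3 had the largest gaps between the 3′ and 5′ probe sets of the GAPDH control (1.00 to 1.13 on the log2 scale, against 0.09 to 0.74 on the other 6), a measure of how complete the labelled RNA is. The same gap of the Actin control did not separate these arrays (3.48 to 4.06, against 2.92 to 3.50 on the other 6). Deviations from the group mean over all probe sets were widest on mock replicate 3, with an SD of 0.34 against 0.15 to 0.27 on the other arrays.

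None of the 6 WRKY genes was called different between any pair of groups in limma, where a call needed at least a 2-fold change together with an adjusted p below 0.05. Between NAA and mock, 4.78% of all probe sets were called, between NAA+CK and mock 5.44%, and between NAA+CK and NAA 0.00877%. A count of 0 among 6 genes does not stand apart from these shares. The largest difference of each comparison was 1.45-fold for WRKY6 between NAA and mock, 1.32-fold for WRKY22 between NAA+CK and mock and 1.25-fold for WRKY6 between NAA+CK and NAA. At an unadjusted p under 0.05, 1 member (WRKY6) passed between NAA and mock, where 31.6% of all probe sets did. None of the 6 passed between NAA+CK and mock, where 31.9% of all probe sets did, or between NAA+CK and NAA, where 2.49% did.

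**Figure D1:**
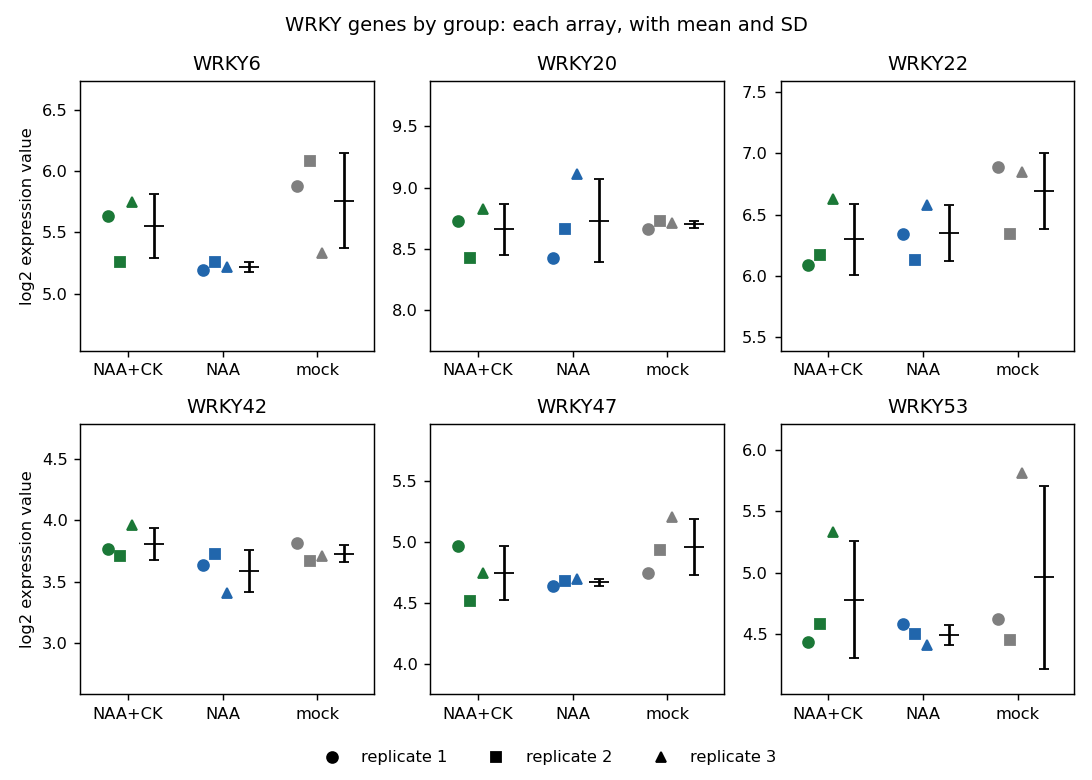
Log2 expression value (vertical axis, the same span in each panel) of the 6 WRKY genes on each array, by group, with symbols for the replicate number and the mean ± SD beside each group (n = 3). The NAA arrays of WRKY6 lie between 5.19 and 5.26, below all mock arrays, and WRKY53 has its highest values on NAA+CK replicate 3 (5.33) and mock replicate 3 (5.81).

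WRKY6, WRKY42 and WRKY47 make up the group IIb members. WRKY6 is known as a regulator of senescence and defence genes, and together with WRKY42 it represses the phosphate exporter gene PHO1 in roots. WRKY6 (AT1G62300) stood at 5.63, 5.26 and 5.75 on the NAA+CK arrays, 5.19, 5.26 and 5.22 on the NAA arrays and 5.88, 6.08 and 5.33 on the mock arrays. The NAA arrays were all lower than the mock arrays, of which mock replicate 3 was the closest to them, and the NAA+CK arrays overlapped both other groups. The means were 5.55 ± 0.26, 5.22 ± 0.04 and 5.76 ± 0.39 (SD, n = 3 each) in the order NAA+CK, NAA and mock.

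Between NAA and mock, WRKY6 differed by -0.54 on the log2 scale (standard error 0.20, 95% interval -0.98 to -0.10), with an adjusted p of 0.0874 from limma. This was the lowest adjusted p among all members and comparisons. Without mock replicate 3 the difference was -0.76 and its adjusted p 0.0060, still short of a 2-fold change, and without any other single array the adjusted p lay between 0.0871 and 0.2712. NAA+CK differed from mock by -0.22 (95% interval -0.66 to 0.22) and from NAA by 0.32 (95% interval -0.12 to 0.76). The mean with NAA+CK lay between the others, and both of these intervals held 0. The difference between NAA+CK and mock depended on single arrays, at -0.06 without mock replicate 2, -0.07 without NAA+CK replicate 2 and -0.43 without mock replicate 3.

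WRKY47 (AT4G01720) had values of 4.97, 4.52 and 4.75 on the NAA+CK arrays, 4.64, 4.68 and 4.70 on the NAA arrays and 4.75, 4.93 and 5.20 on the mock arrays. Only mock replicate 3 was above 5, the value used to mark dim probe sets, whereas WRKY6 was above it on every array. As for WRKY6, the NAA arrays were tightly grouped and lay below all 3 mock arrays, and the NAA+CK arrays spread over both. The difference between NAA and mock was -0.29 (standard error 0.15, 95% interval -0.63 to 0.05, adjusted p = 0.2333 from limma), and -0.17 without mock replicate 3. NAA+CK differed from mock by -0.21 (95% interval -0.55 to 0.13), and by -0.09 without mock replicate 3 or -0.10 without NAA+CK replicate 2. WRKY6 and WRKY47 were the 2 members of 6 whose NAA and mock arrays did not overlap, both lower with NAA, as was true of 14.3% of all probe sets in this direction. No member was without overlap between NAA+CK and mock (14.7% of all probe sets were lower without overlap) or between NAA+CK and NAA (8.89% in either direction).

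WRKY42 (AT4G04450) acts in the phosphate supply of roots, where it also activates the phosphate uptake gene PHT1;1. Its probe set stayed at or below 3.96 on all 9 arrays, under the value of 5 used to mark dim probe sets. Values were 3.77, 3.71 and 3.96 on the NAA+CK arrays, 3.64, 3.73 and 3.41 on the NAA arrays and 3.82, 3.67 and 3.71 on the mock arrays, so that all groups overlapped. NAA+CK differed from NAA by 0.22 (95% interval -0.06 to 0.50), which is the lowest unadjusted p of any member in this comparison, at 0.1140 from limma, with an adjusted p of 0.9996.

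WRKY22 of group IIe is induced by bacterial flagellin through a cascade of MAP kinases. WRKY22 (AT4G01250) stood at 6.09, 6.17 and 6.63 on the NAA+CK arrays, 6.34, 6.13 and 6.58 on the NAA arrays and 6.89, 6.34 and 6.85 on the mock arrays. Mock replicates 1 and 3 were above every other array, and mock replicate 2 lay among the arrays labelled NAA+CK and NAA. Set against the mock array of the same number, all NAA+CK arrays (-0.80, -0.17 and -0.22) and all NAA arrays (-0.55, -0.21 and -0.27) were lower. Between NAA and mock this was also true of WRKY6 and WRKY47, where it follows from the lack of overlap. The share of all probe sets with such a pattern was not computed. Over all probe sets, same-numbered NAA+CK and mock arrays deviated together unevenly (correlations of 0.24, 0.08 and 0.51). WRKY22 was the member with the largest difference between NAA+CK and mock, -0.40 (standard error 0.20, 95% interval -0.85 to 0.05, adjusted p = 0.2148 from limma). NAA differed from mock by a similar amount, -0.34 (95% interval -0.79 to 0.11), and NAA+CK from NAA by -0.05 (95% interval -0.50 to 0.40). With the replicate number as a block the adjusted p was 0.0654 between NAA+CK and mock and 0.1069 between NAA and mock. Both comparisons share the mock arrays.

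WRKY53 of group III promotes leaf senescence and is itself induced by hydrogen peroxide. Its differences rested on 2 of the arrays numbered 3. WRKY53 (AT4G23810) had values of 4.43, 4.58 and 5.33 on the NAA+CK arrays, 4.58, 4.50 and 4.41 on the NAA arrays and 4.62, 4.45 and 5.81 on the mock arrays. Apart from NAA+CK replicate 3 and mock replicate 3, all arrays lay between 4.41 and 4.62, under the value of 5 used to mark dim probe sets. The SD about the group means was 0.51, larger than that of 96.5% of all probe sets, where the median was 0.20. NAA differed from mock by -0.47 (standard error 0.34, 95% interval -1.23 to 0.30), and by -0.04 without mock replicate 3. NAA+CK differed from NAA by 0.29 (95% interval -0.48 to 1.05) and by 0.01 without NAA+CK replicate 3, and from mock by -0.18 (95% interval -0.95 to 0.58), which turned to 0.25 without mock replicate 3.

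The arrays with high WRKY53 are among the 3 with a GAPDH gap of 1.00 or more, and NAA replicate 3, with a gap of 1.11, had the lowest WRKY53 value of all, 4.41. SAG29, a sugar transporter gene named for its rise in senescing leaves, was at 5.84 on NAA+CK replicate 3 and 6.05 on mock replicate 3, the lowest of its group each time, as it was on NAA replicate 3 (5.41). ZAT10, a zinc finger gene that responds quickly to stress and handling, was at 5.44 and 5.84 on NAA+CK replicate 3 and mock replicate 3. These values lay between the other NAA+CK arrays (4.99 and 5.62) and between the other mock arrays (5.89 and 5.05). On NAA replicate 3 ZAT10 was at 4.64, its lowest value on the 9 arrays, as for WRKY53. CML37, the other named gene of touch and handling, was the highest of its group on NAA+CK replicate 3 (4.10), NAA replicate 3 (4.46) and mock replicate 3 (3.86). It was under 5 on every array. PDF1.2, a defensin gene, was also the highest of its group on these 3 arrays (5.73, 5.85 and 5.08). Such shifts were not limited to stress and defence genes. The cell type markers RCA, FAMA and LAS, described below, were each the lowest of their group on all 3 of these arrays. The markers CLV3 and SWEET11 were the lowest on NAA replicate 3 and mock replicate 3, but not on NAA+CK replicate 3. The part of RNA quality in the WRKY53 values was not tested.

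**Figure D2:**
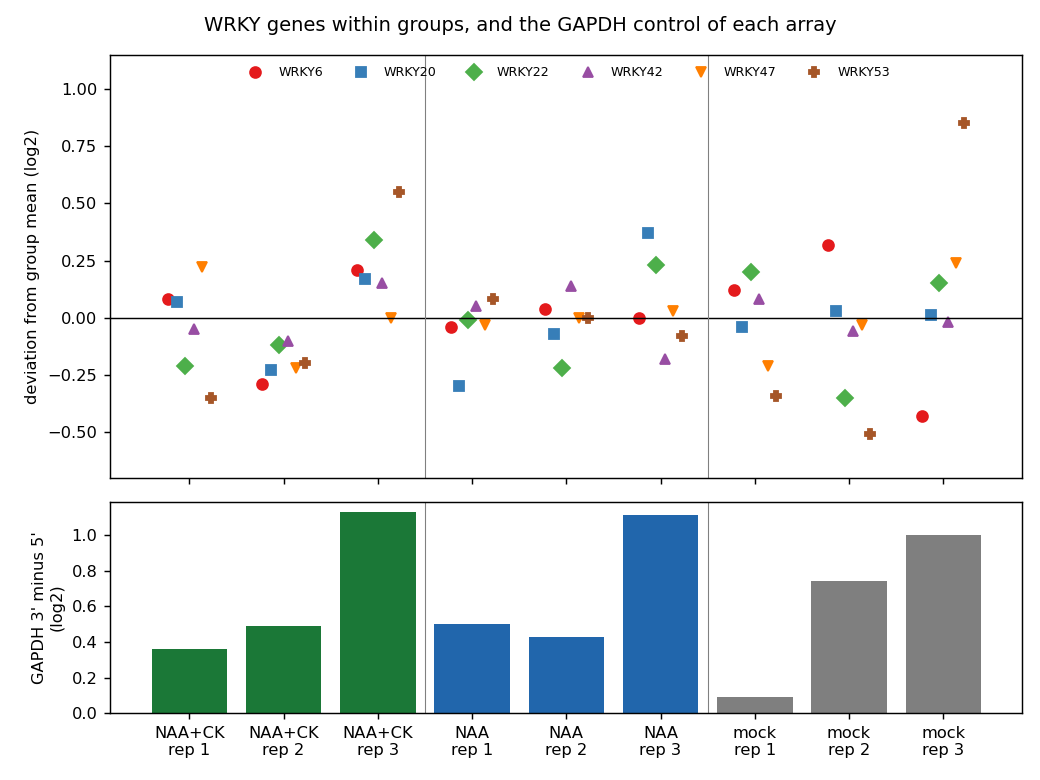
Upper panel, deviation of each WRKY gene from its group mean on the log2 scale for each of the 9 arrays; lower panel, log2 value of the 3′ minus the 5′ GAPDH control probe set of the same array. WRKY53 reaches 0.55 above its group mean on NAA+CK replicate 3 and 0.85 on mock replicate 3, while on NAA replicate 3, with a GAPDH gap of 1.11, its deviation is -0.08.

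WRKY20, the group I member, had the narrowest span of group means among the members, 0.07 on the log2 scale. WRKY20 (AT4G26640) stood at 8.73, 8.43 and 8.83 on the NAA+CK arrays, 8.43, 8.66 and 9.11 on the NAA arrays and 8.66, 8.73 and 8.71 on the mock arrays. The mock arrays were within 0.06 of each other and lay inside the range of both other groups. NAA differed from mock by 0.03 (95% interval -0.36 to 0.43), NAA+CK from mock by -0.04 (95% interval -0.43 to 0.36) and NAA+CK from NAA by -0.07 (95% interval -0.46 to 0.33). The other gene of group I with a named probe set, WRKY1 (ZAP1, AT2G04880), had values of 8.98, 8.99 and 8.79 on the NAA+CK arrays, 8.88, 8.90 and 8.91 on the NAA arrays and 9.15, 8.88 and 8.96 on the mock arrays, with overlapping groups. None of its differences exceeded 0.10 in size.

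How large a change in the probe set values could have been present can be read from the intervals, which are given for each gene on its own. Between NAA+CK and mock, all 6 intervals lay inside a 2-fold change in either direction. Between NAA and mock and between NAA+CK and NAA, 5 of 6 did, and the exception was WRKY53 each time, with a lower bound of 0.43-fold in the first and an upper bound of 2.07-fold in the second. The lower bound of WRKY6 between NAA and mock, 0.51-fold, was close to this limit. WRKY42, WRKY47 and WRKY53 were dim, failing the filter of values over 5 on 3 or more arrays. For them the intervals cannot bound a change of the transcript, since a probe set without clear signal could give a narrow interval too.

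**Figure D3:**
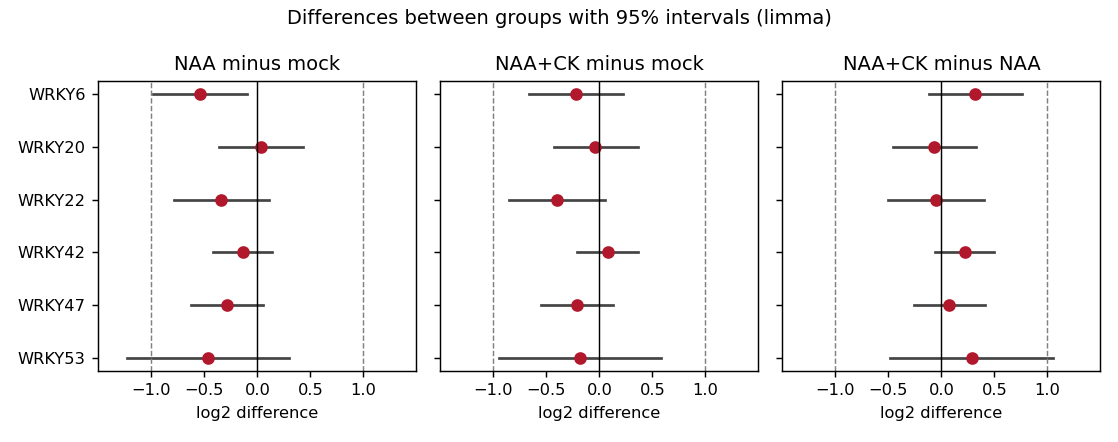
Log2 difference (points) with its 95% interval from limma (lines) for the 6 WRKY genes, 1 panel for each comparison; dashed lines mark a 2-fold change. The interval of WRKY6 between NAA and mock, -0.98 to -0.10, is the only one that leaves out 0, and those of WRKY53 pass the dashed lines between NAA and mock and between NAA+CK and NAA.

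Most estimates of the members were below 0 in the comparisons with mock, which share the mock arrays. The median log2 difference of the 6 was -0.31 between NAA and mock, against 0.04 over all probe sets, -0.20 between NAA+CK and mock, against 0.02, and 0.15 between NAA+CK and NAA, against 0.00. Between NAA and mock 5 of 6 estimates were below 0, as were 44.2% of all probe sets, and between NAA+CK and mock 5 of 6, against 46.9%. These counts and medians include the dim WRKY42, WRKY47 and WRKY53. The WRKY53 difference between NAA and mock was -0.04 without mock replicate 3. Mock had the highest mean for 4 members (WRKY6, WRKY22, WRKY47 and WRKY53), and NAA the lowest for 4 (WRKY6, WRKY42, WRKY47 and WRKY53). In the order of the 3 means of each gene, no neighbouring groups differed past the thresholds. If the names mock and NAA were exchanged, the 4 genes with their highest mean in mock would have it with NAA, and the 4 with their lowest mean in NAA would have it in mock.

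Few of the genes with which WRKY factors are known to act have a named probe set here. Of 177 genes in 10 lists of defence, hormone, senescence, phosphate, trichome and stress responses, 9 have one, and none of them was called in any comparison. BIK1 (AT2G39660), a kinase of immune signalling, passed the adjusted p but not the fold change. It stood at 6.87, 6.67 and 7.05 on the NAA+CK arrays, 6.23, 6.61 and 6.43 on the NAA arrays and 7.38, 7.04 and 7.10 on the mock arrays, a log2 difference of -0.75 between NAA and mock without overlap (1.68-fold, adjusted p = 0.0103 from limma). TRY, a repressor of trichome fate, differed by -0.95 (adjusted p = 0.0521) between NAA+CK and mock. SAG101, of salicylic acid signalling, EFR, an immune receptor gene, and IKU1, which encodes a VQ-motif protein, a class that partners WRKY factors, had adjusted p-values from 0.1228 to 0.9996 over the 3 comparisons. PDF1.2, a defensin gene of the jasmonate response, and CML37, a calmodulin-like gene, had adjusted p-values from 0.1093 to 0.9996. The median log2 difference of the 9 was -0.02 between NAA and mock, 0.06 between NAA+CK and mock and 0.11 between NAA+CK and NAA.

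Of 48 markers of shoot cell types in 6 lists, 5 have a named probe set, and 1 of these was called, lower, in each comparison with mock, where 4.78% (NAA) and 5.44% (NAA+CK) of all probe sets were called. SWEET11, a sucrose exporter gene of the phloem, was called lower with NAA+CK than mock (-1.37 on the log2 scale, adjusted p = 0.0108 from limma) and lower with NAA than mock (-1.22, adjusted p = 0.0178). RCA, which encodes the activase of the carbon-fixing enzyme Rubisco, stood between 12.57 and 13.04 on the NAA+CK arrays, between 12.96 and 13.17 on the NAA arrays and between 13.36 and 13.72 on the mock arrays, with differences of -0.81 (adjusted p = 0.0080) between NAA+CK and mock and -0.56 (adjusted p = 0.0357) between NAA and mock, both under 2-fold. The meristem genes CLV3 and LAS and the guard cell gene FAMA were not called in any comparison. LAS, a gene of leaf axils, stood between 5.60 and 6.18 over the 9 arrays. CLV3, the stem cell peptide gene, was dim on all 9 arrays, between 3.64 and 4.72, so that these markers check the labelled tissue only in part. The part of tissue composition in the WRKY values was not tested.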

How the data were processed

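Gene expression was measured on 9 Affymetrix ATH1 arrays, 3 for each of the groups NAA+CK, NAA and mock. The authors deposited log2 values that they had normalised with the RMA algorithm in R 2.15, a method that makes the arrays alike in distribution. The version of RMA is not given in the sources used here. No filter was applied to the 22810 probe sets. There are no detection calls, and precision is limited by having 3 arrays per group.

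Group means were estimated from all 9 arrays together in limma 3.58.1 under R 4.3.3 (lmFit, eBayes), with Benjamini-Hochberg adjustment across every probe set. Calls needed at least a 2-fold change together with an adjusted p below 0.05. The 95% intervals come from the same fit. The procedure was tested on simulated data with independent noise on each array. These data did not copy the joint deviations of same-numbered arrays or the wider spread of mock replicate 3. Genes were named through RefSeq and the platform annotation, in which 503 probe sets with several genes were left out. A further 8794 of the 22810 probe sets have no annotation there, so a gene without a named probe set may still be on the array. Levels of different probe sets were not compared.

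Same-numbered NAA and mock arrays deviated together (correlations of 0.32, 0.38 and 0.45 over probe sets). For NAA+CK the correlations were 0.24, 0.08 and 0.51 with mock and 0.04, 0.30 and 0.36 with NAA. The replicate number was used as a block only as an alternative.

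The members and lists were chosen with earlier results of these data known. By the rule for named genes, called members, members of group IIa (none has a named probe set here) and called list genes were to be named. So was, in each WRKY group, the member with the lowest adjusted p between NAA+CK and NAA. All members had an adjusted p of 0.9996 from limma there, so in group IIb WRKY42 was taken by its unadjusted p. WRKY6 and WRKY47 were named in addition so that all 6 members are given, and list genes that were not called were named after their values were seen. In the epidermis list, FDH was dropped because the symbol in the annotation belongs to a different gene. Alternatives concerned the call (no demand on the fold, an adjusted p below 0.01, or treat at 1.2-fold), the probe sets (those over 5 on 3 or more arrays, those that are not controls, or each WRKY probe set), the normalisation (a second quantile step or median centring), the model (a replicate block, array weights, a robust trended prior, or a fit to the 6 arrays of a comparison) and the arrays (each left out in turn, or mock and NAA renamed as each other). Leaving out the 3 arrays numbered 3 together was added after the data were seen, as was following each member through the alternatives.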

Additional observations from a re-analysis of the deposited data

How the results depend on the processing

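In limma, the number of WRKY members called higher or lower was 0 in each comparison under every alternative tried, also with the replicate block, with no demand on the fold in the fit to all 9 arrays, or with mock and NAA renamed as each other. With the replicate block the adjusted p of WRKY6 between NAA and mock was 0.0825, and the block changed no call of a member. Over all probe sets, the calls with the block numbered 1186 between NAA and mock, 1324 between NAA+CK and mock and 7 between NAA+CK and NAA. With array weights, WRKY6 differed by -0.78 between NAA and mock (adjusted p = 1.58e-04) and by -0.53 between NAA+CK and mock (adjusted p = 0.0069), and with the arrays numbered 3 left out by -0.75 (adjusted p = 0.0077) and -0.54 (adjusted p = 0.0290), all under 2-fold. The filter on dim probe sets left 3 of the 6 members, WRKY6, WRKY20 and WRKY22. Of 18 differences, 9 kept their sign in every alternative. With array weights the sign turned for WRKY20 between NAA and mock (-0.09), WRKY22 between NAA+CK and NAA (0.03) and WRKY53 between NAA+CK and mock (0.14). With the arrays numbered 3 left out it turned for WRKY20 between NAA and mock (-0.15) and between NAA+CK and NAA (0.03), WRKY42 between NAA+CK and mock (-0.01) and WRKY53 between NAA and mock (0.00) and between NAA+CK and NAA (-0.03). Without single arrays the difference ranged for WRKY20 from -0.15 to 0.19 between NAA and mock (above 0 except without NAA replicate 3), from -0.12 to 0.08 between NAA+CK and mock (below 0 except without NAA+CK replicate 2) and from -0.22 to 0.12 between NAA+CK and NAA (above 0 without NAA replicate 3 or NAA+CK replicate 2). Between NAA+CK and NAA it ranged from -0.22 to 0.06 for WRKY22 (above 0 without NAA replicate 3, NAA+CK replicate 1 or NAA+CK replicate 2) and from -0.04 to 0.19 for WRKY47 (below 0 without NAA+CK replicate 1). For WRKY53 it ranged from -0.46 to 0.25 between NAA+CK and mock (above 0 without mock replicate 3). Over all probe sets, the calls between NAA and mock numbered 1091, but 1734 with array weights, 1970 with the arrays numbered 3 left out and 732 (without mock replicate 1) to 2041 (without mock replicate 3) without single arrays. Between NAA+CK and mock they numbered 1241, but 1861, 1942 and 741 to 2167 under the same alternatives, with the same arrays at either end, and between NAA+CK and NAA 2, but 1 to 30 over the alternatives. The causes were not tested.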
